A study of Mus musculus with 4 samples.

Results

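Nuclear receptors and their coregulators were examined in a mouse mesenchymal stem cell line, C3H10T1/2, with and without bone morphogenetic protein 3 (BMP3). The family held 43 listed genes, 39 receptors and 4 coregulators, and each gene was read from its brightest probe set by mean over the 4 arrays, among probe sets annotated to that symbol alone. Of the 43, 41 had such a probe set, out of 18193 genes that had one in the series, and Nr1h2 and Ncor1 are not analysed here. The data were 2 arrays of control cells that received no treatment and 2 arrays of cells kept for 6 hours with BMP3 (recombinant, human) at 100 ng/ml. All 4 came from the same cell line under standard culture, total RNA was hybridised to Affymetrix 3' expression arrays, and the labels call the 2 arrays of each group biological replicates. Nothing in the labels says whether these were separate cultures, so the spread between them may be partly technical. The family was chosen because Nr3c2 was lower in the BMP3 arrays, so differences between BMP3 and control arrays are given here as a description. Standard errors and p-values from the fit across all probe sets are printed for members only to describe them and to set counts beside those of all genes, and they are not evidence about the members.

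Nuclear receptors are transcription factors that bind DNA through a zinc-finger domain and, in most cases, change their activity when a small lipid-soluble ligand occupies a second domain. Without an activating ligand many of them recruit corepressors such as NCoR, and with one they recruit p160 coactivators, which bring histone acetyltransferases to the gene. In mesenchymal precursors, receptors for glucocorticoids, retinoic acid, vitamin D, thyroid hormone and fatty acids, together with orphan receptors of the COUP-TF group, are known to act on the choice between fat, bone and cartilage fates. BMP3 is a secreted protein of the TGF-beta superfamily.

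Nr3c2, Rora and Nr2f6 were the members with a difference of at least 1.5-fold and an unadjusted p under 0.05 in the comparison the family was chosen on, used here only to pick which promoters to show. The 250 bases before the start of each gene are shown to let a reader see what kind of promoter each has. They were read from RefSeq's promoter table for build GRCm38.p6, which held an entry for 38 of the 43 members, and are written 5′ to 3′ on the gene's strand. Capitals mark CCAAT boxes (CCAAT) and GC boxes (GGGCGG) found on either strand, and matches that overlap run together.
Nr3c2, chr8:76902080-76902329, + strand: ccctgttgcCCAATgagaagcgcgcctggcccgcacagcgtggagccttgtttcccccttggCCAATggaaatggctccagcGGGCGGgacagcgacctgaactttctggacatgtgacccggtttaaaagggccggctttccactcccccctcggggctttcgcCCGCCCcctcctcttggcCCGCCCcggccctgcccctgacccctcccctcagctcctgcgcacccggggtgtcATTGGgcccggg
Rora, chr9:68653536-68653785, + strand: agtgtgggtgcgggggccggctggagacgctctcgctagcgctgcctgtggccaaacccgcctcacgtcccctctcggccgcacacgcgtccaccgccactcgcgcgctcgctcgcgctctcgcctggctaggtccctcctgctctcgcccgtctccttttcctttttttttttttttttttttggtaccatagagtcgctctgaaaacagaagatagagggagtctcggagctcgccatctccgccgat
Nr2f6, chr8:71381953-71382202, - strand: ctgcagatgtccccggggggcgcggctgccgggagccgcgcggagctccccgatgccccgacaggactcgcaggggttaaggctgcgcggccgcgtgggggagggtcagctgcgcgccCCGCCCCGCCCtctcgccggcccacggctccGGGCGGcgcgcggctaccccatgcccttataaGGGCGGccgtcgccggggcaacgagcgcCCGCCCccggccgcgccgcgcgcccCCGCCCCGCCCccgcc
The Nr3c2 window held 3 CCAAT boxes and 3 GC boxes at 68.4% G and C. The Nr2f6 window held 7 GC box matches, some overlapping, at 82.4% G and C, and the Rora window held 0 of either motif at 61.2%. Among 32851 promoter windows of this length, 33.8% held CCAAT and 32.7% held GGGCGG. The nuclear receptor half-site AGGTCA, the steroid receptor half-site AGAACA, the SMAD-binding element CAGAC and the GC-rich SMAD motif GGCGCC were searched on both strands as well. These letters occurred in none of the 3 windows, against 14.0%, 16.1%, 42.2% and 9.6% of all windows. The 58 windows of members held the 4 motifs in 13.8%, 8.6%, 32.8% and 15.5% of cases. Their median was 58.0% G and C, against 52.4% over all windows, and the part of base composition in these shares was not tested.

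A log2 value of 6 on average was used to divide measured members into brighter and dim ones, since the deposited table gives no detection call. By this level 20 of the 41 members were brighter, with means from 6.13 (Rara) to 14.18 (Nr2f1), and 21 were dim. None of the dim members reached 6 on any array, and their means ran from 1.58 (Nr1d1) to 3.88 (Esr1). All but Esr1 and Rorb lay below the median of every array, which was 3.31 to 3.40, on all 4 arrays. The dim members included both estrogen receptors, the progesterone receptor, Rarb, Rxrg, Thrb, Ppara, the liver X receptor gene Nr1h3 and the bile acid and xenobiotic receptors Nr1h4, Nr1i2 and Nr1i3. They also included the clock receptor Nr1d1, Rorb, Nr2e1, Esrrb, Esrrg, Hnf4a, Nr5a1, Nr5a2 and the atypical receptors Nr0b1 and Nr0b2. Their log2 differences between groups (BMP3 minus control) stayed between -0.15 and 0.10, and no fold is given for values this low. A low value says that this probe set gave little signal, not that the transcript was absent.

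**Figure D1:**
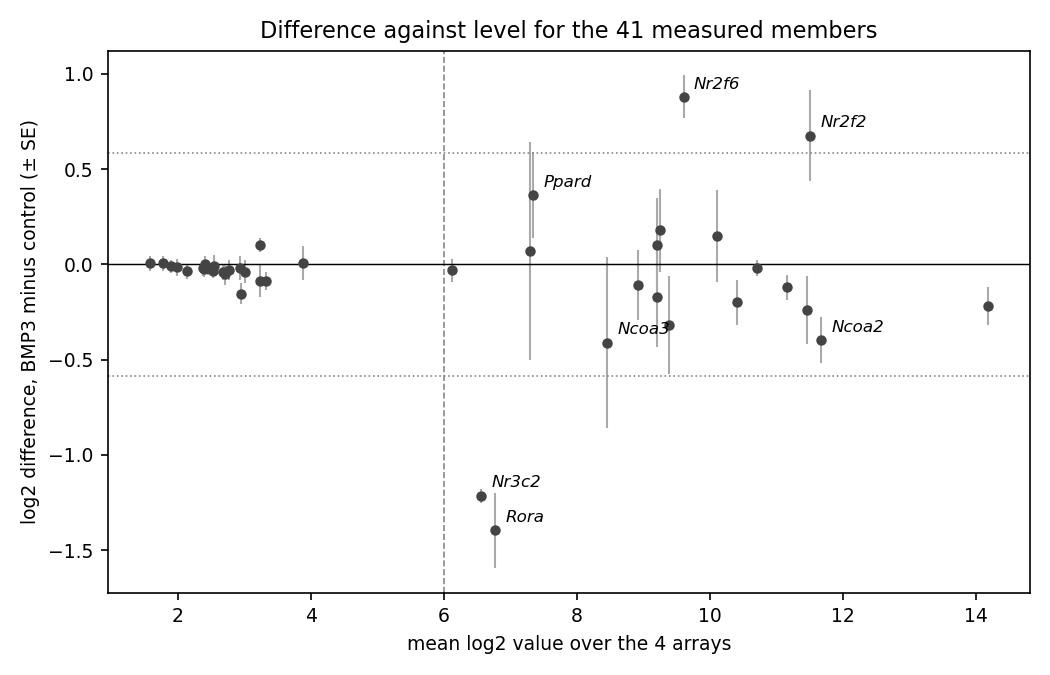
Log2 difference between BMP3 and control arrays (mean of 2 minus mean of 2, bars ± limma standard error) against the mean log2 value over 4 arrays for the 41 measured members. The dashed line marks a log2 value of 6 and the dotted lines a 1.5-fold difference; 2 members lie beyond the upper dotted line (Nr2f6, Nr2f2) and 2 beyond the lower one (Nr3c2, Rora), all right of the dashed line.

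Of the 20 brighter members, 13 averaged lower in BMP3 arrays and 7 higher, while 46.7% of the 9185 genes at this level averaged lower. Differences of at least 1.5-fold were found for 2 members in the lower direction (Nr3c2 and Rora) and 2 in the higher (Nr2f6 and Nr2f2), against 5.54% and 4.02% of genes at this level. The BMP3 arrays lay wholly below the control arrays for 6 of the 20 and wholly above for 2, against 21.7% and 26.1%. The members' median log2 difference was -0.11 over the brighter 20 and -0.03 over all 41, beside 0.02 and -0.01 over all genes. By limma's test across 45037 probe sets, 0 members and 0 probe sets of any gene passed a Benjamini-Hochberg adjusted p of 0.05 (smallest adjusted p = 0.213), which is 0% of the probe sets. At an unadjusted p under 0.05, limma counted 4 of the 41 members (Nr3c2, Rora, Nr2f6 and Ncoa2), against 9.80% of the 18193 genes. Where a 1.5-fold difference was required too, 1 member was higher and 2 were lower, against 1.18% and 1.65% of the 18193 genes. Nothing is read from these shares, since the family was chosen on this comparison and since Nr3c2 reached an average of 6 only through its control arrays. For a single value, 2 arrays against 2 cannot give a two-sided exact permutation p below 0.333.

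Control RNAs also differed along the treatment. The 18S ribosomal RNA probe sets averaged 11.41 and 10.50 (control) against 8.99 and 9.90 (BMP3). The Phe poly-A spike-in stood at 8.43 and 7.69 (control) against 7.06 and 7.13 (BMP3), and the Dap, Lys and Thr spike-ins were likewise lower in both BMP3 arrays than in both control arrays. Their part in the members' differences was not tested. Of the mesenchymal markers, 8 of 9 measured averaged a log2 value of 6 or more, Nt5e being the exception. Their BMP3 arrays lay wholly above the control arrays for 4 of the 8, with log2 differences of 0.73 for Thy1, 0.64 for Cd44, 0.47 for Eng and 0.12 for Col1a2. Vim lay wholly below at -0.10. Pdgfra (-0.73), Pdgfrb (-0.30) and Col1a1 (-0.02) averaged lower with overlap. Of all genes at this level, 26.1% lay wholly above and 21.7% wholly below, and nothing is read from the count of these few markers. Differences in these markers thus reached the size of several of the members' differences, and their part in those was likewise not tested. No haematopoietic marker (0 of 5) and no endothelial marker (0 of 4) averaged 6 or more. Of the epithelial markers 1 of 5 did, Epcam at 9.51, while Cdh1, Krt8, Krt18 and Krt19 averaged 1.99 to 3.98. Of the adipocyte markers 1 of 3 measured did, Fabp4 at 9.22, while Adipoq averaged 2.04 and Lep 1.86. In bulk RNA, fewer cells of a type and less RNA per cell cannot be told apart.

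Among the steroid hormone receptors, Nr3c2 and Nr3c1 were the brighter members. Nr3c2 encodes the mineralocorticoid receptor, which binds aldosterone and also glucocorticoids. Its only probe set (1435991_at) stood at 7.15 and 7.18 (control) against 5.97 and 5.94 (BMP3), replicate 1 before replicate 2 here and in each such pair of values. The groups were far apart relative to the spread inside each, and the BMP3 values lay just under a log2 value of 6 but well above the array medians. BMP3 arrays averaged 2.32-fold lower (log2 difference -1.21, standard error 0.04). A gene picked for its small p from 2 arrays a group tends to have a small error by selection, and no second probe set was available to set beside it.

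Nr3c1 encodes the glucocorticoid receptor, the closest relative of Nr3c2. Its brightest probe set (1460303_at) stood at 11.70 and 11.47 (control) against 11.53 and 11.15 (BMP3). These groups overlapped, and the log2 difference was -0.24 (95% interval -0.79 to 0.31). The probe set 1421867_at likewise overlapped, with a difference of -0.09. Another, 1457635_s_at, stood at 11.32 and 11.23 (control) against 10.37 and 10.31 (BMP3). Here the BMP3 arrays were lower by more than the spread inside either group, with a log2 difference of -0.94 and a standard error of 0.05. The dim probe set 1453860_s_at also had no overlap, at 5.34 and 5.29 against 4.90 and 4.68. The suffix "_s_at" marks probe sets whose probes match several transcripts, which may belong to 1 gene or to related genes, and the files do not say which part of the Nr3c1 transcript each probe set covers. The Nr3c1 signal was thus lower on some of its probe sets and not separated on the brightest one.

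Rora encodes an orphan receptor that binds a half-site as a monomer, drives the clock gene Bmal1 and has roles in lipid metabolism. The brightest probe set (1436325_at) stood at 7.70 and 7.23 (control) against 6.14 and 5.99 (BMP3), a log2 difference of -1.40 with a standard error of 0.20. Lower values were also found on its other brighter probe sets, by a wider margin. The probe set 1455165_at stood at 7.82 and 7.60 (control) against 5.04 and 4.83 (BMP3), a log2 difference of -2.77 with a standard error of 0.13. The probe set 1424034_at stood at 7.77 and 7.17 (control) against 5.04 and 4.28 (BMP3), a difference of -2.81 with a standard error of 0.38. On all 3 the groups were separate, and on these last 2 the BMP3 values, though under 6, still lay above the array medians. The other 6 probe sets of Rora averaged under 6. Of these, 1420583_a_at (-1.71) and 1436326_at (-0.81) also had BMP3 arrays wholly below control arrays, and the rest overlapped, with differences from -0.04 to 0.01. The brightest probe set therefore gave the smallest Rora difference of the 3 brighter ones. Rora had a larger difference than Nr3c2 on each of these 3, without a test between the genes.

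**Figure D2:**
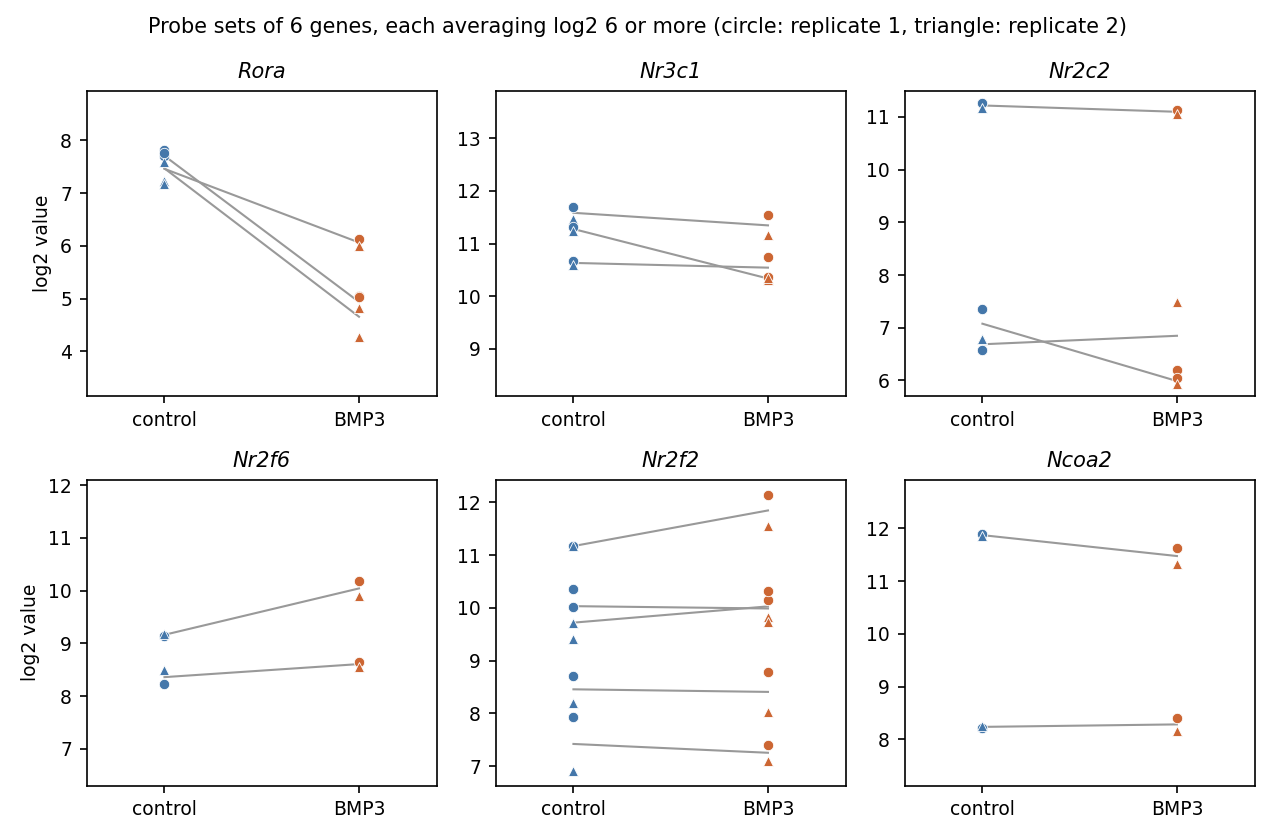
Log2 values on each array for every probe set that averaged 6 or more, in 6 genes picked from the 11 members with several such probe sets. Each grey line joins the control mean to the BMP3 mean of 1 probe set, and all panels span the same log2 range. The 3 Rora lines all slope down, whereas Nr3c1, Nr2c2 and Ncoa2 each have 1 steeper and at least 1 nearly level line. Nr2f2, Nr2c2 and Ncoa2 have lines in both directions.

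Retinoic acid receptors (Rara, Rarg) and their shared partners, the retinoid X receptors (Rxra, Rxrb), had no separation of the groups among the 4 brighter members. Rxrb stood at 10.70 and 10.73 (control) against 10.73 and 10.67 (BMP3), a log2 difference of -0.02 with a 95% interval from -0.15 to 0.12. Rara differed by -0.03 (interval -0.22 to 0.15), with values that all lay close to 6.1. The intervals for Rxrb and Rara did not reach a 1.5-fold difference in either direction. They rest on a spread between replicates that may be partly technical, so they do not exclude such a difference. Rarg differed by 0.15 (interval -0.60 to 0.90) and Rxra by 0.18 (interval -0.49 to 0.85), so differences of 1.5-fold could not be seen or left out for them either. Rxra was set apart by 1 array, BMP3 replicate 1 at 9.61, while the other 3 arrays lay between 9.07 and 9.17.

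Of the thyroid hormone and vitamin D receptors, Thra and Vdr averaged above 6. Thra, the thyroid hormone receptor alpha gene, stood at 10.56 and 10.47 (control) against 10.45 and 10.18 (BMP3). The groups did not overlap, but the gap between control replicate 2 and BMP3 replicate 1 was narrow (log2 difference -0.20, standard error 0.12). Its other probe sets differed by -0.24 and -0.03. Vdr, the vitamin D receptor gene, stood at 9.80 and 9.28 (control) against 9.42 and 9.04 (BMP3), which overlapped. Its second probe set differed by -0.07.

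Of the receptors that sense lipids, Ppard was the only brighter one among the listed members. It encodes PPAR delta, which is activated by fatty acids. Its values were 7.35 and 6.97 (control) against 7.74 and 7.32 (BMP3), overlapping, with a log2 difference of 0.37 and a standard error of 0.22. The estrogen-related receptor gene Esrra, an orphan regulator of mitochondrial genes, differed by 0.10 (standard error 0.25). Nr6a1, the germ cell nuclear factor gene, had values of 7.45 and 7.06 (control) against 8.02 and 6.63 (BMP3). Both control values lay between the BMP3 values, and its 95% interval ran from -1.69 to 1.84.

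The 2 members at least 1.5-fold higher in BMP3 arrays, Nr2f6 and Nr2f2, belong to the COUP-TF group. These orphan receptors mostly repress transcription and compete for the sites and partners of other receptors. Nr2f6, the most divergent of the group, stood at 9.15 and 9.18 (control) against 10.18 and 9.91 (BMP3). BMP3 arrays averaged 1.84-fold higher (log2 difference 0.88, standard error 0.11). On its second probe set (1460647_a_at) the values were 8.23 and 8.49 (control) against 8.66 and 8.56 (BMP3), again without overlap but with a difference of only 0.25. The 2 probe sets of Nr2f6 thus shared a direction and differed in size.

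Nr2f2, the COUP-TFII gene, which is known for a role in mesenchymal lineage choice, had 5 brighter probe sets that did not share a direction. The brightest (1416159_at) read 11.17 on both control arrays and 12.14 and 11.55 on the BMP3 arrays, a log2 difference of 0.68 with a standard error of 0.24. Without BMP3 replicate 1 the difference was 0.38. The groups overlapped on the other 4 probe sets, whose differences ran from -0.17 to 0.31. Nr2f1, the COUP-TFI gene, stood at 14.37 and 14.21 (control) against 14.16 and 13.98 (BMP3), with no overlap and a difference of -0.22.

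Nr2c1 and Nr2c2, which encode the orphan receptors TR2 and TR4, form a pair that binds the same direct repeats. Nr2c2 read 11.27 and 11.16 (control) against 11.14 and 11.05 (BMP3) on its brightest probe set, a log2 difference of -0.12 with no overlap. A dimmer probe set of the same gene (1439696_at) stood at 7.36 and 6.79 (control) against 6.05 and 5.93 (BMP3), a difference of -1.09 with a standard error of 0.23. Another, 1451569_at, differed by 0.16 and overlapped. All 4 brighter probe sets of Nr2c1 averaged lower in BMP3 arrays, by -0.54 to -0.05, and on 1 of them the groups did not overlap. That 1 (1449157_at) also gave the -0.54. Its BMP3 arrays averaged 5.87, so it passed the level of 6 only through its control arrays.

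The p160 coactivators Ncoa1, Ncoa2 and Ncoa3 all averaged lower in BMP3 arrays on their brightest probe sets. Ncoa2 was the one whose groups did not overlap, at 11.88 and 11.86 (control) against 11.62 and 11.33 (BMP3) (log2 difference -0.40, standard error 0.12). On its second probe set the difference was 0.05, so this was not shared by both. Ncoa1 differed by -0.17 with overlap on the brightest probe set and by -0.42 without overlap on the next. Ncoa3 stood at 9.03 and 8.30 (control) against 8.68 and 7.82 (BMP3), and its control arrays differed from each other by more than the group means did.

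**Figure D3:**
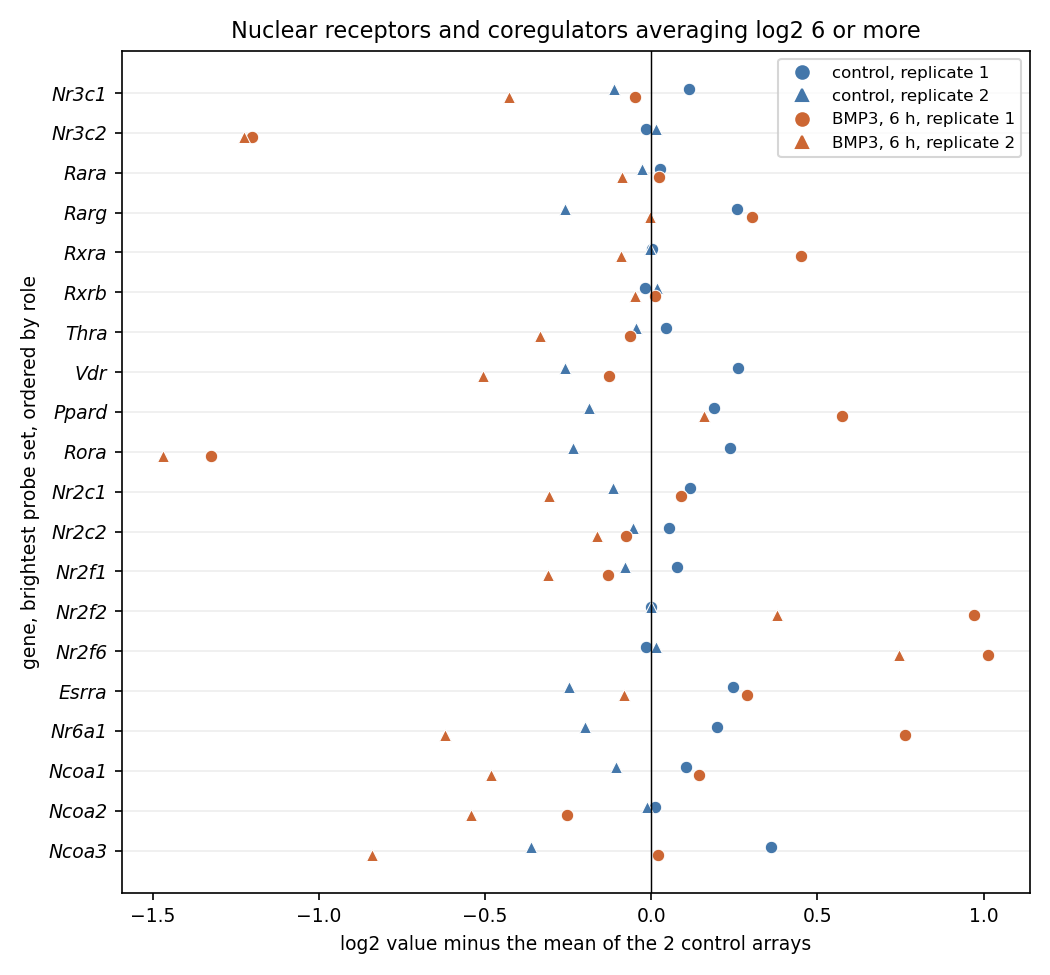
Log2 value on each array minus the mean of the 2 control arrays for the 20 members that averaged 6 or more (brightest probe set, ordered by role). Blue points are control and orange points BMP3 arrays, circles replicate 1 and triangles replicate 2; Nr3c2 and Rora lie furthest left, Nr2f6 furthest right with both arrays, and the BMP3 circle lies right of the BMP3 triangle in all 20 rows.

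On their brightest probe sets, the 20 brighter members shared an order of the replicates that the choice of the family did not use. BMP3 replicate 1 was above BMP3 replicate 2 for 20 of the 20, while this held for 56.8% of the 9185 genes at this level. Replicate 1 was above replicate 2 in both groups for 16 of the 20, and for 41.7% of those genes. The 4 exceptions, where the control arrays had another order or were equal, were Nr3c2, Rxrb, Nr2f6 and Nr2f2. The order did not hold on every brighter probe set. BMP3 replicate 1 was below BMP3 replicate 2 on Nr2c1 1446194_at (6.54 and 6.63) and Nr2c2 1451569_at (6.20 and 7.49). Genes read on the same arrays are not independent, so these counts describe the arrays used here. For Rarg, Vdr, Esrra, Nr6a1 and Ncoa3, among others, the 2 BMP3 arrays differed from each other by more than the group means did.

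Over all probe sets of members that averaged 6 or more, 28 of 40 averaged lower in BMP3 arrays, where 50.2% of 17152 such probe sets did. At least 1.5-fold lower were 6 of the 40, namely 3 of Rora and 1 each of Nr3c2, Nr3c1 and Nr2c2, against 7.45% of such probe sets. On 4 of these 6 (2 of Rora and those of Nr3c2 and Nr2c2) the BMP3 arrays averaged under 6, so they passed the level through their control arrays. Among the 28, so did 1449157_at of Nr2c1. The 28 also included several probe sets of 1 gene, such as 4 of Nr2c1 and 3 each of Rora, Nr3c1 and Thra. Such probe sets are not independent, and nothing is read from the 28 or the 6. At least 1.5-fold higher were 2 of the 40, 1 each of Nr2f6 and Nr2f2, against 3.63%. Of 11 members with several such probe sets, 6 had all of them lower, 2 had all of them higher and 3 (Ncoa2, Nr2c2 and Nr2f2) had both directions. The 3' minus 5' log2 difference of the Gapdh control probe sets, a measure of how far labelling reached along a transcript, was -0.55 and -0.56 (control) against -0.09 and -0.44 (BMP3). For beta-actin it was 0.48 and 0.39 (control) against 0.73 and 0.38 (BMP3), so BMP3 replicate 1 was highest on both controls, and the groups overlapped on beta-actin only. The part of these measures in the differences between probe sets of 1 gene was not tested.

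Other genes of these pathways were taken from 9 lists of further receptors, coregulators, chaperones, ligand-handling enzymes and known receptor targets. Of 77 measured genes 0 passed limma's adjusted p of 0.05 (smallest adjusted p = 0.224), and 7 had an unadjusted p under 0.05, a share near the 9.80% of all genes. Of the 53 that averaged 6 or more, 27 were higher and 26 lower in BMP3 arrays, with a median log2 difference of 0.01. Groups did not overlap for 18 of the 53, 10 above control and 8 below, against 26.1% and 21.7% of all genes at this level.

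Coregulators beyond the members were close to evenly divided, with 8 of 17 brighter genes higher and 9 lower. Carm1, an arginine methyltransferase that acts with the p160 coactivators, stood at 10.13 and 10.08 (control) against 10.43 and 10.61 (BMP3) (log2 difference 0.41). Tbl1x, a subunit of the NCoR complex, differed by 0.26 on its brightest probe set and by 0.03 and -0.18 on the others, and the ligand-dependent corepressor gene Lcor by -0.18, -0.54 and -0.56 on its brighter probe sets. Pparg, the adipogenic receptor, ranged from 8.24 to 10.92 within the BMP3 arrays alone, with a log2 difference of -0.34 and a standard error of 1.18.

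Of the steroid receptor chaperones and immunophilins, 6 of 7 brighter genes averaged higher, as did 4899 of the 9185 genes at this level. The 6 included Hspa8 and Bag1, which differed by only 0.01 each, so nothing is read from this count. Stip1, which links the chaperones Hsp70 and Hsp90, stood at 10.53 and 10.58 (control) against 11.05 and 11.08 (BMP3), a log2 difference of 0.51 with a standard error of 0.04. Hsp90aa1 differed by 0.07 on its brightest probe set and by 0.28 and -0.08 on the others. Fkbp5, an immunophilin that restrains the glucocorticoid receptor and is itself a target of it, stood at 7.90 and 8.87 (control) against 9.05 and 9.71 (BMP3). The groups were separate, yet the control arrays differed from each other by almost as much as the group means, which lay 0.99 apart on the log2 scale (standard error 0.47).

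Known glucocorticoid and mineralocorticoid targets went both ways, with 5 of 12 brighter genes higher and 7 lower and a median log2 difference of -0.02. Beside Fkbp5, Cebpd, an early adipogenic factor, stood at 12.46 and 12.09 (control) against 11.44 and 10.96 (BMP3) (difference -1.07). Klf9, a target of glucocorticoid and thyroid hormone receptors alike, had BMP3 arrays below control arrays on all 5 of its brighter probe sets, with differences from -0.53 to -0.08. The targets named here thus included genes in opposite directions.

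Retinoid genes had 3 of 5 brighter members higher and 2 lower. Tgm2, a transglutaminase gene induced by retinoic acid, stood at 9.70 and 9.30 (control) against 8.57 and 7.97 (BMP3) (log2 difference -1.23, standard error 0.29). Its 4 brighter probe sets all averaged lower, by -1.26 to -0.45, with the groups overlapping on 1 of them. In the PPAR list, with 2 of 6 higher and 4 lower, Cpt1a, which controls entry of fatty acids into mitochondria, differed by -0.65, and its value for BMP3 replicate 2 (11.52) lay furthest from the others. Its probe set 1438156_x_at likewise differed by -0.65 without overlap, and 1460409_at by -0.24 with overlap. LXR targets had 4 of 5 higher, led by Scd1 (0.75), Srebf1 (0.41) and Lpcat3 (0.37), all with separate groups. Of the 9185 genes at this level 4899 averaged higher and 26.1% lay wholly above, and nothing is read from so short a list. Scd1 differed by 0.09 on its second probe set. Abca1 differed by -0.95 with overlap, and its BMP3 arrays averaged 5.94, so it passed the level of 6 through its control arrays. Thyroid hormone and vitamin D genes were dim apart from Klf9, and enzymes of corticosteroid metabolism had 1 of 2 higher, neither with separate groups.

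**Figure D4:**
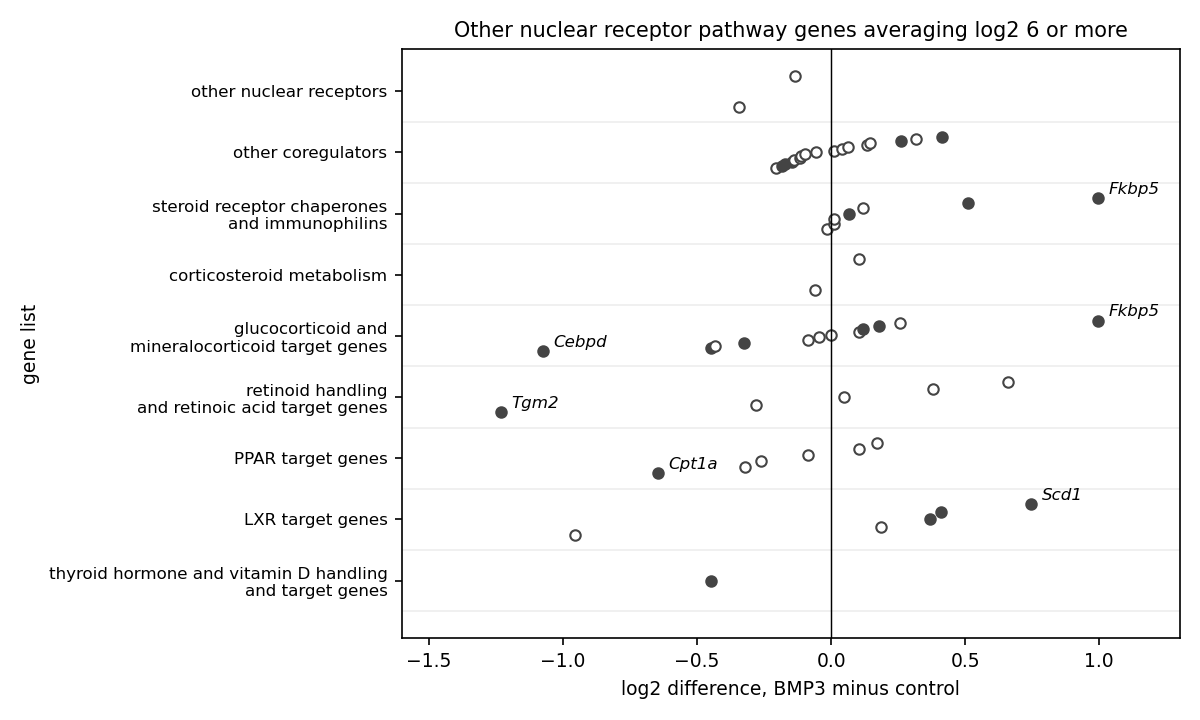
Log2 difference between BMP3 and control arrays for each pathway gene that averaged 6 or more, by list, on the brightest probe set. Filled points are genes whose 2 BMP3 arrays lay wholly above or below the 2 control arrays and open points overlap; Tgm2 and Cebpd lie furthest left among the filled points, and Fkbp5, which is in 2 lists, furthest right.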

How the data were processed

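Each probe set had 1 deposited log2 value on each array. That the scale is log2 was judged from the values, and with another base each fold would differ. The submitters' processing notes name Partek without a version. How the authors corrected background, normalized arrays and summarised probes is not given in the sources used here. A normalization that equalises arrays would hide a change of most transcripts in one direction. The 64 control probe sets were not fitted. Of the other 45037, 34945 carried 1 symbol in the platform annotation, 932 several and 9160 none, and 34741 symbols were checked through Entrez identifiers against RefSeq, with 0 changed. Probe sets carrying several symbols were not assigned. Groups came from the sample titles. Differences were fitted with limma 3.58.1 in R 4.3.3 (lmFit, eBayes, no covariate) and Benjamini-Hochberg adjustment over all probe sets. Standard errors are limma's moderated ones, and intervals are at 95%. The number of arrays, 2 a group, limits the precision.

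Members, lists and motifs were chosen with earlier results of these data known. Members that averaged a log2 value of 6 or more are named with values. Values on each array are given where groups did not overlap, and for some other members chosen after their values were seen. Up to 3 genes of each pathway list with the largest differences among brighter genes with separate groups are named, plus Pparg. Abca1 and additional probe sets were named after their values were seen. The alternatives tried were a replicate block, leaving out 1 array at a time, cyclic loess, quantile normalization, centring on medians, a level filter, a linear offset of 16, an intensity trend and the mean of all probe sets of a gene.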

Additional observations from a re-analysis of the deposited data

How the results depend on the processing

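No probe set and no member passed the adjusted p of 0.05 under any alternative run. The count of members past limma's unadjusted p of 0.05 and 1.5-fold was 3, and it was 2 to 4 under the alternatives that kept all 4 arrays. Nr3c2 and Rora were in each of these counts, and Nr2f6 in each except where a gene's probe sets were averaged, when its difference was 0.56. Every setting used the same arrays, and the family was chosen because Nr3c2 was lower in them. Nr3c2 also has only 1 probe set, so averaging probe sets left its value as it is. Nothing is read from these counts. The median log2 difference of the members was -0.028, and -0.062 (without BMP3 replicate 1) to 0.0019 (without BMP3 replicate 2) with single arrays left out. It was 0.010 after median centring and -0.11 over the 20 members averaging 6 or more, so its direction is not settled. With the replicate number as a block, 4 members were counted, Nr2f2 being added, and the median stayed at -0.028. Differences of replicate 1 minus replicate 2 correlated between the groups at r = 0.596 across 17152 probe sets, which are not independent, and 2 pairs cannot show that the numbers pair the arrays. For named differences, the block, the intensity trend and the level filter leave the value as it is, and leaving out 1 of 2 arrays cannot move it past the SD between replicates, so these say nothing of stability. Under the other 5 alternatives 165 of 186 values moved by less than that SD and 21 by more, 10 of them with a gene's probe sets averaged. With a gene's probe sets averaged, Nr2f2 had 0.12, Rora -1.06, Fkbp5 0.30 and Ncoa2 -0.12. These means take in each gene's dim probe sets. Those of Rora had differences from -1.71 (1420583_a_at) to 0.01 (1441085_at), and Fkbp5 1448231_at had -0.02. Why other values moved was not tested. With 2 arrays a group, differences under 1.5-fold could often not be told from the spread.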
